A study of Nezara viridula with 24 samples.

Results

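The third section of the midgut, M3, was compared with the first, M1, in adult stink bugs of the species Nezara viridula. The comparison uses 12 of the 24 libraries of the study: 3 from M3 of insects given green bean, 3 from M3 of insects given corn, 3 from M1 on green bean and 3 from M1 on corn. Newly moulted adults were given fresh food of their diet, corn or green bean, and fed for 24 h until dissection, and each library is made from polyA RNA of a section pooled from 4 to 10 individuals. The other 12 libraries, 6 from the middle section M2 and 6 from salivary glands, took no part in the comparison and are used only to show where the genes found here stand in those tissues. The labels name neither a strain nor the sex of the insects. The study made each group in triplicate and speaks of biological replicates, without saying whether every pool was drawn from a culture of its own, and the p-values cover the spread between these pools only.

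Plant-feeding stink bugs take up liquefied food through piercing mouthparts and pass it along a midgut divided into sections of different shape. The first section is a wide, sac-like compartment that receives the meal. The second is a narrower tube, and the third is a bulb that lies ahead of the region where many stink bugs house symbiotic bacteria. Digestion in the midgut of such insects is known to rely largely on cysteine proteases of the cathepsin type, and the gut cells are covered by a perimicrovillar membrane in place of the peritrophic membrane of many other insects.

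Transcripts in the deposited tables carry only identifiers of a Trinity assembly, which is built from the reads themselves. The tables do not pair these identifiers with gene names, sequences or functions, so no digestive enzyme, transporter or marker of a gut section could be looked up, and the identity of the dissected sections could not be checked against known markers. Genes are therefore named by their identifiers, for instance TRINITY_DN256_c0_g1, where the last part numbers a gene of an assembled component. The isoforms of a Trinity gene were summed. The 298322 transcripts form 201329 Trinity genes, of which 18177 had enough counts in these 12 libraries to be tested, and those held 95.5% to 99.8% of the counts of each library. Levels are CPM, counts scaled to a common library size, relative to the TMM-scaled total of a library, a scaling that corrects for differences in composition between libraries. Because transcript lengths are not given, levels are compared between tissues for a gene and not between genes.

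The 12 libraries held 17819164 to 33954593 estimated counts. Libraries of corn-fed insects differed in how many genes had at least 1 count. Corn replicate 1 detected 122664 genes in M3 and 94335 in M1, corn replicates 2 and 3 detected 59476 and 55003 in M3 and 40890 and 44573 in M1, and the 6 green bean libraries lay between 64667 and 93477. The TMM factors ran from 0.517 in corn M1 replicate 2 to 1.546 in corn M3 replicate 1, so CPM values of corn M1 replicate 2 are raised by the scaling more than those of any other of these libraries. The counts of called genes over both diets, on corn alone and for the interaction are also given without some of these corn libraries, and the other values below include all of them. The part of these library differences in the results was not tested. In a principal component analysis of the 12 libraries, the first component held 46.7% of the variance of log2 CPM. All 6 M3 libraries lay between 104 and 122.3 on it and all 6 M1 libraries between -126.4 and -91.9.

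The sections differed in a large part of the genes tested. Over both diets, edgeR's quasi-likelihood test with diet as a covariate called 5356 of 18177 genes at a Benjamini-Hochberg adjusted p under 0.05, which is 29.5%. Of these, 2824 genes (15.5%) were higher in M3 and 2532 (13.9%) were lower. Without the corn libraries numbered 1 there were 3081 higher and 2682 lower, and without those numbered 2 and 3 there were 2598 and 2742. Which direction held more genes also depended on the scaling, with 2660 higher and 2696 lower under DESeq2's size factors. The falls were larger than the rises: the median log2 fold change, M3 over M1, was 1.72 among the genes called higher and -2.4 among those called lower, against a median of 0.027 over all genes tested. At least 2-fold changes were seen in 2030 genes called higher and 2064 called lower, at least 8-fold changes in 733 and 1019, and at least 32-fold changes in 258 and 489. Of the 5356 genes, 3053 had no overlap between the 6 M3 and the 6 M1 libraries, a property that 17% of all tested genes had. The libraries are bulk tissue, in which fewer cells of a type and less RNA per cell cannot be told apart.

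**Figure D1:**
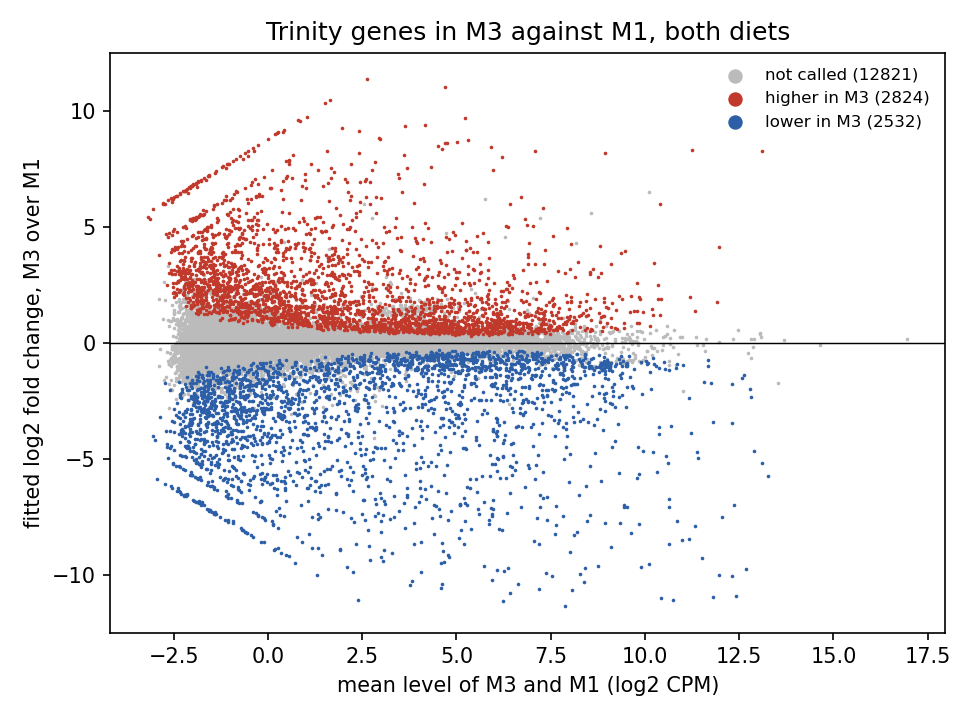
Each point is a Trinity gene, with the mean level of M3 and M1 on the x axis (log2 CPM) and the fitted log2 fold change, M3 over M1, on the y axis; red points are the 2824 genes called higher in M3, blue points the 2532 called lower and grey points the 12821 not called. At least 32-fold changes belong to 489 blue and 258 red points, and the slanted lines of points are genes with few or no counts in 1 of the sections.

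Under the TMM scaling, the balance of directions differed with how strongly a gene was represented in the libraries. Among the 1378 genes with a mean of at least 100 CPM over M3 and M1, 437 were lower in M3 (31.7%) and 240 were higher (17.4%). Among the 4513 genes between 10 and 100 CPM, 772 were higher (17.1%) and 644 lower (14.3%). Among the 5100 genes between 1 and 10 CPM, 907 were higher (17.8%) and 628 lower (12.3%), and among the 7186 below 1 CPM, 905 were higher (12.6%) and 823 lower (11.5%). The most strongly represented genes were thus the stratum in which genes lower in M3 outnumbered those higher in M3. These strata were counted under the TMM scaling only. Without transcript lengths they rank genes by counts and not by RNA molecules.

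Of the genes that gained most in M3 in terms of CPM, TRINITY_DN256_c0_g1 came first. It had 28160, 12580 and 19510 CPM in green bean M3 and 11200, 11880 and 22340 CPM in corn M3, against 55.57, 43.17 and 39.15 CPM in green bean M1 and 47.5, 86.99 and 68.48 CPM in corn M1. The lowest M3 library was more than 100 times above the highest M1 library. Counts summed over the libraries gave a 321.1-fold higher level in M3 (95% counting interval 313.6 to 328.9), and the fitted log2 fold change was 8.29 (SE 0.46, edgeR adjusted p = 3.94e-08). M2 had 6665, 4002 and 3888 CPM on green bean and 4268, 8790 and 17650 CPM on corn. On green bean all 3 M2 libraries lay between the sections, whereas corn M2 replicate 3 was above corn M3 replicates 1 and 2. TRINITY_DN256_c0_g1 took 1.95% ± 0.461 of all counts in M3 and 0.00481% ± 0.000514 in M1 (SD, n = 6 each).

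The low level of TRINITY_DN256_c0_g1 in M1 and the high level in M3 belonged to different isoforms. In M3, 97.3% of its counts fell on isoform TRINITY_DN256_c0_g1_i7, and in M1, 96.3% fell on isoform TRINITY_DN256_c0_g1_i6. TRINITY_DN256_c0_g1_i6 itself ranged from 22.95 to 48.24 CPM in M3 and from 37 to 79.31 CPM in M1, so its ranges in the sections overlapped. TRINITY_DN256_c0_g1_i7 ranged from 10950 to 27490 CPM in M3 and from 0 to 6.576 CPM in M1. Isoforms can share reads, and the division of such reads among them is an estimate.

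TRINITY_DN378_c0_g1 was the next in order of gain and had another course along the gut. It had 4969, 6219 and 6831 CPM in green bean M3 and 6617, 8836 and 11550 CPM in corn M3, against 274.4, 285.8 and 611.5 CPM in green bean M1 and 409, 496.7 and 459.4 CPM in corn M1. It was 16.83-fold higher in M3 by summed counts (16.69 to 16.97), with a fitted log2 fold change of 4.12 (SE 0.31, edgeR adjusted p = 4.9799e-07). Its level in M2 stood above both sections, at 38550 to 65650 CPM on green bean and 40640 to 142200 CPM on corn, without overlap with the M3 libraries. It made up 0.868% ± 0.245 of the counts in M3, 6.33% ± 1.78 in M2 and 0.038% ± 0.0163 in M1 (SD, n = 6 each). Isoform TRINITY_DN378_c0_g1_i1 led in both sections of the comparison, with 88.7% of the counts of the gene in M3 and 83.5% in M1.

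In the other direction, TRINITY_DN1491_c0_g1 lost most. It had 401.4, 442.3 and 437.2 CPM in green bean M3 and 126.9, 397.8 and 334 CPM in corn M3, against 17780, 14010 and 10180 CPM in green bean M1 and 10380, 41870 and 22610 CPM in corn M1. All 6 M1 libraries were far above all 6 M3 libraries, and corn M1 replicate 2 was the highest. Summed counts gave a 47.9-fold lower level in M3 (47.53 to 48.26), and the fitted log2 fold change was -5.74 (SE 0.53, edgeR adjusted p = 3.0072e-06). As a share of library counts, which the scaling does not touch, TRINITY_DN1491_c0_g1 took 0.0197% to 0.0545% in M3 and 1.13% to 2.18% in M1. Its 3 isoforms kept nearly the same proportions in both sections, with TRINITY_DN1491_c0_g1_i1 at 81.7% in M3 and 80.7% in M1.

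TRINITY_DN909_c0_g1 had 739.9, 624 and 526.5 CPM in green bean M3 and 367.5, 89.92 and 605.3 CPM in corn M3, against 18400, 18490 and 16790 CPM in green bean M1 and 6381, 25690 and 16990 CPM in corn M1. The M1 libraries on green bean lay close together and those on corn were spread about 4-fold, still without overlap with M3. It was 32.06-fold lower in M3 (31.86 to 32.27), with a fitted log2 fold change of -5.18 (SE 0.53, edgeR adjusted p = 7.9019e-06). Both TRINITY_DN1491_c0_g1 and TRINITY_DN909_c0_g1 were already low in M2. On corn, TRINITY_DN909_c0_g1 stood at 81.86, 95.98 and 179.3 CPM there, and on green bean at 217.5, 197.7 and 2162 CPM. Green bean M2 replicate 3 was the highest M2 library for both genes, with 1667 CPM of TRINITY_DN1491_c0_g1 against 249.7 and 197.3 CPM in the other green bean M2 libraries.

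**Figure D2:**
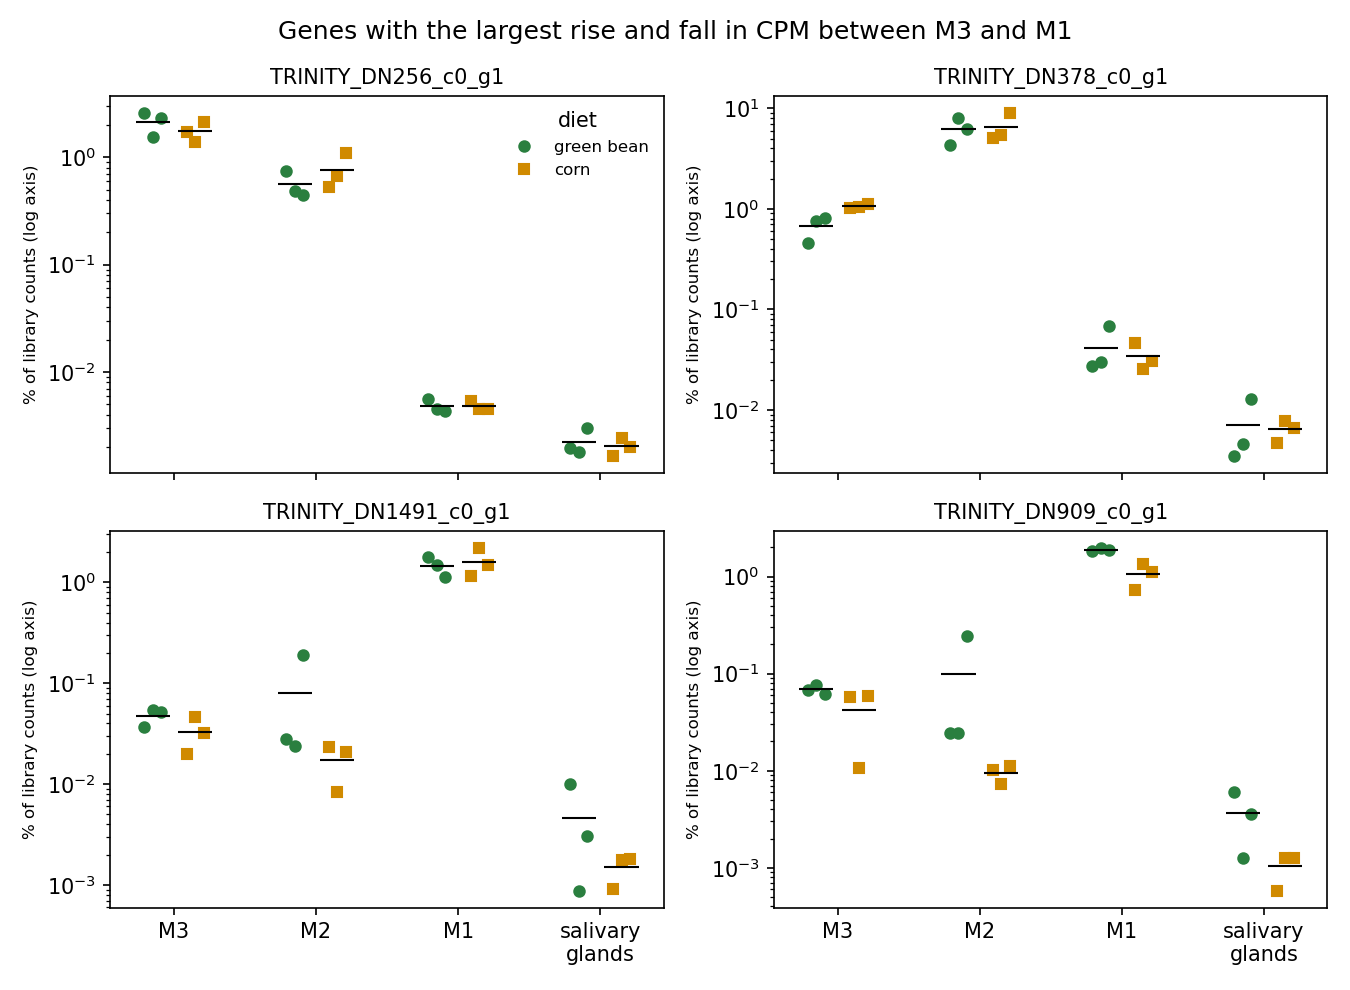
The share of library counts (%, log axis) is plotted for the pair of genes with the largest gain in M3 (top) and the pair with the largest loss (bottom), by tissue; each symbol is a library (green circles, green bean; orange squares, corn) and each line the mean of 3. TRINITY_DN256_c0_g1 is highest in M3 and TRINITY_DN378_c0_g1 in M2, while TRINITY_DN1491_c0_g1 and TRINITY_DN909_c0_g1 are highest in M1.

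How much of the counts these differences involve was described by the share held by the called genes. Without transcript lengths, a share of counts is not a share of RNA molecules. The 2824 genes called higher held 20.92% ± 1.54 of counts in green bean M3 and 22.56% ± 1.23 in corn M3, against 5.87% ± 0.381 in green bean M1 and 5.119% ± 1.25 in corn M1 (SD, n = 3 each). The 2532 genes called lower held 11.92% ± 0.598 in green bean M3 and 11.71% ± 0.629 in corn M3, against 43.09% ± 1.47 in green bean M1 and 44.96% ± 2.56 in corn M1. These values describe the genes chosen and support no test. The genes lower in M3 therefore held a larger part of the counts of M1 than the genes higher in M3 held of those of M3. Within the higher set, 50 genes held 50% of its CPM in M3 and 10 genes held 27.6%, with 13.2% in the leading 2. Within the lower set, 37 genes held 50% of its CPM in M1, and the 10 leading genes held 24.4%.

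The M2 and gland libraries had no part in choosing these sets. In M2, the higher set held 17.68% ± 1.23 of counts on green bean and 19.03% ± 1.71 on corn, but a single gene carried much of this. TRINITY_DN378_c0_g1 held 6.21% of counts in green bean M2 and 6.46% in corn M2. Without it the set held 20.24% ± 1.36 in M3, 11.47% ± 0.995 in M2 and 5.828% ± 0.365 in M1 on green bean, and 21.5% ± 1.25, 12.58% ± 1.15 and 5.085% ± 1.24 in the same sections on corn (SD, n = 3 each). The lower set held 22.25% ± 1.92 in green bean M2 and 16.93% ± 0.593 in corn M2, with the 3 green bean libraries (20.37% to 24.21%) above the 3 corn libraries (16.55% to 17.61%), a difference that was not tested. In salivary glands, within the table of gland libraries, the higher set held 3.694% ± 0.158 on green bean and 3.913% ± 0.0756 on corn, and the lower set 8.186% ± 0.626 and 9.081% ± 0.0795 (SD, n = 3 each). By share of counts, M2 thus stood between M3 and M1 for both sets, and without TRINITY_DN378_c0_g1 it was nearer to M1 for the higher set.

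**Figure D3:**
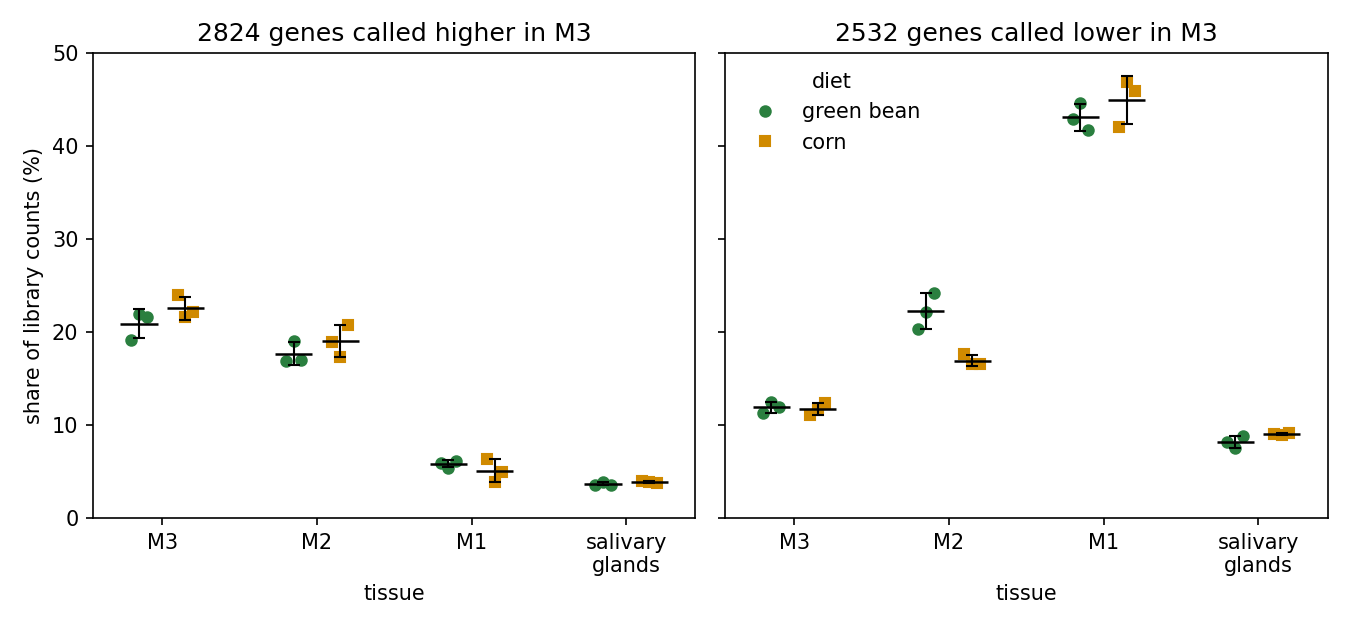
The share of library counts (%) held by the genes called higher in M3 (left) and lower in M3 (right) is plotted by tissue; symbols are libraries (green circles, green bean; orange squares, corn), with the mean and SD of 3 libraries in black. The lower set reaches 41.7% to 46.88% in M1 and lies between 11.13% and 12.48% in M3.

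Some genes were close to being switched between the sections. The threshold was at least 10 CPM on average over the 6 libraries of one section and under 1 CPM over the 6 of the other. Of the genes called higher in M3, 1134 averaged at least 10 CPM in M3, and 54 of these met it. Of those called lower, 1202 averaged at least 10 CPM in M1, and 145 of these met it. The 145 genes of M1 held 0.00473% ± 0.000609 of counts in green bean M3 and 0.00638% ± 0.000518 in corn M3, against 0.879% ± 0.0901 in green bean M1 and 0.859% ± 0.0922 in corn M1. The 54 genes of M3 held 0.202% ± 0.0779 of counts in green bean M3 and 0.225% ± 0.002 in corn M3, against 0.0016% ± 0.000729 in green bean M1 and 0.00134% ± 0.000281 in corn M1 (SD, n = 3 each). Both gene sets were chosen by their levels in these same libraries, so the contrasts follow from the threshold and support no test. A complete absence of counts was rarer. No count in any of the 6 M1 libraries was found for 73 genes called higher, and only 1 of them averaged at least 10 CPM in M3. No count in any M3 library was found for 65 genes called lower, again with 1 at or above 10 CPM in M1. A gene without counts in a section entered the test only through the other section. These numbers cover called genes, and those over all tested genes are not given.

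In M2, these genes ranged from under 1 CPM to levels above those of the section they were chosen for. TRINITY_DN981_c0_g2, one of the 54, averaged 17.06 CPM in M3 but 62.25 CPM in green bean M2 and 207.8 CPM in corn M2. TRINITY_DN11926_c0_g1, one of the 145, averaged 76.89 CPM in M1, 58.21 CPM in green bean M2 and 181.6 CPM in corn M2. Of the 145 genes of M1, 35 kept at least 10 CPM in green bean M2, 74 lay between 1 and 10 CPM and 36 were under 1 CPM. On corn the numbers were 22, 64 and 59. Of the 54 genes of M3, 7 reached 10 CPM in green bean M2, 12 lay between 1 and 10 CPM and 35 were under 1 CPM, and on corn the numbers were 11, 24 and 19. Green bean M2 replicate 3 had the highest share of counts in the 145 genes of M1, at 0.189%, against 0.084% and 0.118% in the other green bean M2 libraries and 0.086% to 0.0929% in corn M2. Whether tissue of M1 was present in that library was not tested.

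The place of M2 between the sections was also described gene by gene on the scale log2(CPM + 1), where 0 stands for the level of M1 and 1 for that of M3. Genes entered where M3 and M1 differed on the diet in question by at least 1 on this scale, in the direction of the pooled call. Only part of the 2824 genes called higher and of the 2532 called lower met this, in the numbers given next. For genes called higher in M3, M2 lay nearer to M3 in 331 of 990 genes (33.4%) on green bean and in 517 of 1025 (50.4%) on corn, with median positions of 0.33 and 0.5. For genes called lower in M3, M2 lay nearer to M3 in 590 of 1100 genes (53.6%) on green bean and in 803 of 1280 (62.7%) on corn, with median positions of 0.54 and 0.64. Among the higher genes that entered, M2 was thus nearer to M1 for most on green bean, and they divided about evenly on corn. Among the lower genes that entered, M2 was nearer to M3 for most on either diet. In 96 genes of the higher set on green bean and 148 on corn, M2 exceeded M3, as it did for TRINITY_DN378_c0_g1. Since the genes were chosen for a difference between M3 and M1, these shares are a description, and the difference between the diets was not tested.

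**Figure D4:**
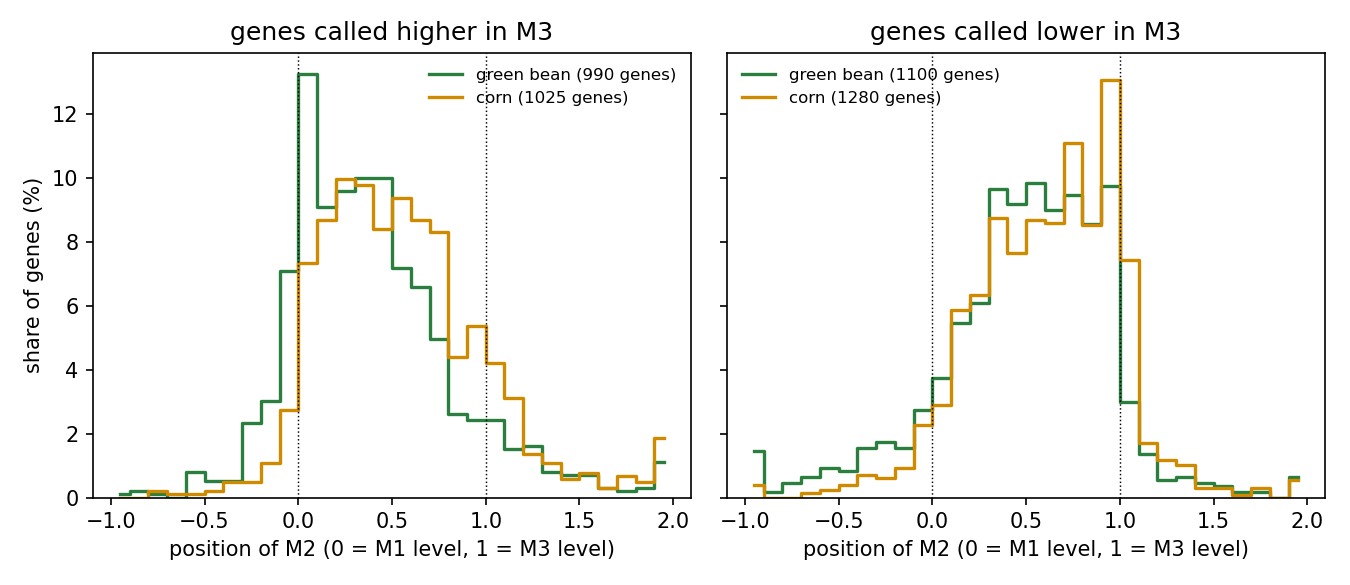
The position of M2 between the sections (0, level of M1; 1, level of M3) is plotted on the x axis against the share of genes (%) in steps of 0.1, for genes called higher (left) and lower in M3 (right); the green line is green bean and the orange line corn, and values beyond the axis are gathered in the end steps. Only genes that differed between M3 and M1 by at least 1 in log2(CPM + 1) entered. Among those called higher, the green bean line lies further left (median 0.33) than the corn line (median 0.5).

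The diets share no library, so each gives its own measure of the difference between the sections. On green bean alone, edgeR's test called 3927 of 18177 genes (21.6%), 1875 higher in M3 (10.3%) and 2052 lower (11.3%). On corn alone it called 2311 genes (12.7%), 1017 higher (5.59%) and 1294 lower (7.12%). The higher calls shared 764 genes, 40.75% of those on green bean and 75.12% of those on corn, and the lower calls shared 1028, 50.1% and 79.44%. No gene was called higher on one diet and lower on the other. Of the green bean calls, 97.53% had the same sign on corn, and 98.66% of those made on corn kept their sign on green bean, where the signs matched for 75.96% of all tested genes.

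The sizes of the changes were also compared. Genes called higher on corn had a median log2 fold change of 2.909 on green bean and 3.239 on corn, and genes called lower on corn had -3.356 on green bean and -4.128 on corn. Genes called higher on green bean had a median of 2.119 on green bean and 1.643 on corn, and genes called lower on green bean had -2.719 and -2.513. The diet that chose the genes thus had the larger median change in each case. Across all 18177 genes, which are not independent, Pearson's r between the log2 fold changes on the diets was 0.8511 and Spearman's rho 0.7217. Of the 5356 genes called over both diets, 1792 were called the same way on each diet alone, 1712 on green bean only, 451 on corn only and 1401 on neither. The pooled sign was found on both diets for 5352. Since the pooled calls were made on the libraries of both diets, this match is largely set by the choice of genes and is no separate check. The corn count depended on single libraries: it was 1331 without corn M1 replicate 3, 1426 without corn M3 replicate 2 and 1540 without corn M3 replicate 3. Without the corn libraries numbered 1 it was 2801, 1146 higher and 1655 lower, and without those numbered 2 and 3 too few corn libraries remained for a test on corn alone.

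**Figure D5:**
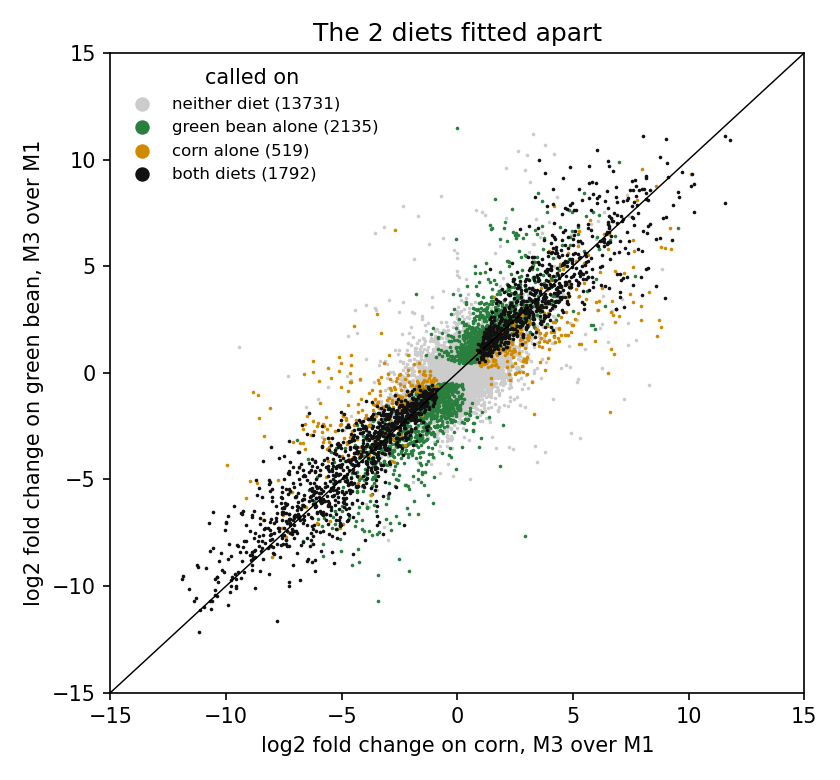
Each point is a Trinity gene, with its fitted log2 fold change, M3 over M1, on corn on the x axis and on green bean on the y axis; black points were called on both diets (1792), green points on green bean alone, orange points on corn alone and grey points on neither. Black points lie in the upper right and lower left only, along the line of equal change.

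Whether the difference between M3 and M1 itself differed between the diets was tested as an interaction of section and diet. edgeR's quasi-likelihood test called 0 of 18177 genes (0%), with a smallest adjusted p of 0.5381. At an unadjusted p under 0.05 there were 804 genes (4.42%). DESeq2 called 104 genes, 84 with a larger M3 over M1 ratio on green bean and 20 with a larger ratio on corn. The edgeR count was also 0 in each fit without 1 library and in the fits without the corn libraries numbered 1 or those numbered 2 and 3. It was above 0 with no filter on low counts, as given below with the other alternatives. For the 4 genes described above, the adjusted p of the interaction in edgeR's test was 0.99998, with interaction terms, green bean minus corn, of 0.96 (SE 0.62) for TRINITY_DN256_c0_g1, -0.36 (SE 0.54) for TRINITY_DN378_c0_g1, 1.41 (SE 0.77) for TRINITY_DN1491_c0_g1 and 0.7 (SE 0.88) for TRINITY_DN909_c0_g1. A term of this size with such errors does not show that the diets act alike.

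The genes with the largest fitted rise on green bean had almost no counts in M1. TRINITY_DN16710_c0_g1 had 21.81, 6.525 and 9.433 CPM in green bean M3 and no count in green bean M1, a level in M3 at least 277.5-fold higher when the absent side is set to 3 counts over its libraries (edgeR adjusted p = 0.0054584 on green bean alone). TRINITY_DN16710_c0_g1 also had no count in the 3 corn M3 and the 3 corn M1 libraries, so the pooled call (edgeR adjusted p = 0.00038766) rests on green bean M3 alone. In M2 it reached at most 0.4912 CPM, on green bean, and it had no count in corn M2 or in any gland library. It is the only one of the 12 named genes that had no count in any corn library.

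TRINITY_DN9031_c0_g1 had 82.39, 110.8 and 66.85 CPM in green bean M3, against 0, 0.04506 and 0.0644 CPM in green bean M1. The ratio by summed counts was 2122, with a counting interval from 725.8 to 10290 that reflects the 3 counts in M1 (edgeR adjusted p = 0.00011089 on green bean alone). In corn M3 it had 10.62, 8.014 and 34.18 CPM, with no count in corn M1. In M2 its highest value was 0.4605 CPM, far under its level in each M3 library.

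Among the largest falls on green bean, TRINITY_DN4282_c0_g1 had 0.03529, 0.0239 and 0.03275 CPM in green bean M3, from 3 counts in all, against 239.3, 85.62 and 135.9 CPM in green bean M1. It was 4908-fold lower in M3 (1679 to 23800, edgeR adjusted p = 4.9341e-05 on green bean alone). On corn it had 0.1904, 0.3386 and 0.5741 CPM in M3 and 285.1, 1394 and 671.1 CPM in M1, a 1886-fold lower level in M3 (1336 to 2758, edgeR adjusted p = 0.00027073 on corn alone). In M2 it did not exceed 1.002 CPM in any library, and all of its counts belonged to a single isoform.

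TRINITY_DN5376_c0_g1 had no count in green bean M3 and 15.78, 22.71 and 2.834 CPM in green bean M1, at least 412.6-fold lower in M3 (edgeR adjusted p = 0.033048 on green bean alone). This call was lost in 4 of the 6 fits without a green bean library (adjusted p from 0.06486 to 0.1295). It passed over both diets (edgeR adjusted p = 2.2862e-06), with a single count summed over the 6 M3 libraries.

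On corn, among genes not already described, TRINITY_DN1274_c0_g1 had 11.16, 13.7 and 21.51 CPM in corn M3 and no count in corn M1, a level in M3 at least 284.6-fold higher (edgeR adjusted p = 0.00041424 on corn alone). On green bean it had 16.06, 16.8 and 12.48 CPM in M3 and 0.05596, 0.04506 and 0.0644 CPM in M1, a ratio of 271.7 (105.9 to 998.4). M2 lay between, at 0.4233 to 2.066 CPM over the 6 libraries. It was thus absent or nearly absent in M1, near 1 CPM in M2 and above 11 CPM in M3 on both diets, and no gland library had a count.

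TRINITY_DN20028_c0_g1 had 11.14, 16.18 and 18.1 CPM in corn M3 and 11.93, 7.194 and 9.957 CPM in green bean M3, and no count in any of the 6 M1 libraries. Its level in M3 was thus at least 509.5-fold higher over both diets (edgeR adjusted p = 4.6809e-07) and at least 279.7-fold higher on corn alone (edgeR adjusted p = 0.00029115). In M2 it had 0 to 0.133 CPM on green bean and 0.217 to 1.252 CPM on corn. Of its isoforms, TRINITY_DN20028_c0_g1_i3 held 71.6% of the counts in M3.

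In the other direction on corn, TRINITY_DN5974_c0_g2 had 0.0238, 0 and 0 CPM in corn M3, from a single count, and 54.56, 66 and 54.15 CPM in corn M1. The summed ratio was 5392-fold lower in M3 (967.1 to 213000, edgeR adjusted p = 8.7082e-05 on corn alone). On green bean it had 0.1059, 0 and 0.03275 CPM in M3 and 22.66, 25.82 and 65.91 CPM in M1 (edgeR adjusted p = 0.0030314 on green bean alone). In green bean M2 replicate 3 it reached 10.97 CPM, against at most 0.4323 CPM in the other 5 M2 libraries, so that library was again the highest for a gene of M1. It was not for TRINITY_DN4282_c0_g1, which had 0.03849 CPM there and 0.0614 and 0.06651 CPM in the other green bean M2 libraries.

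TRINITY_DN2863_c1_g1 had no count in any M3 library and 12.32, 35.34 and 6.083 CPM in corn M1, at least 490.8-fold lower in M3 on corn (edgeR adjusted p = 0.0027671 on corn alone, but 0.08762 without the corn libraries numbered 1). In green bean M1 it had 3.973, 1.983 and 3.639 CPM, and M3 was at least 107.6-fold lower (edgeR adjusted p = 0.0012157 on green bean alone). The lower bounds given for genes with an absent side are conventional, and lower ends of counting intervals fall below them, at 398.3 for TRINITY_DN2863_c1_g1 on corn. Fitted log2 fold changes are not given for these genes, since they depend on the prior count.

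Most called genes were represented by several assembled isoforms, as were the other genes. A single isoform with counts was found for 29.7% of the genes called higher, 32.4% of those called lower and 33.3% of those not called. Where several isoforms had counts and the gene was seen in both sections, the leading isoform was the same in M3 and M1 for 72.5% of the genes called higher, 72.2% of those called lower and 80.4% of those not called. TRINITY_DN256_c0_g1 belongs to those with a change of leading isoform. Any count was enough for a gene to enter, and TRINITY_DN5376_c0_g1 had 1 count over the M3 libraries. With so few counts the leading isoform is poorly determined, and the part of this in the lower shares of called genes was not tested. Genes of one assembled component share sequence in the assembly and may share reads. Of 2112 components with at least 2 tested genes, 353 had at least 2 called genes. Among these 353, 273 (77.3%) had all calls in 1 direction and 80 had both. Over all tested genes 15.5% were called higher and 13.9% lower, and the share that unrelated genes would give was not computed.

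How evenly the counts were spread over genes was compared library by library. The number of genes holding 50% of the counts was 129.17 ± 32.5 in M3 and 101.83 ± 42.6 in M1 (SD, n = 6 each). In M3 it was 96, 141 and 119 on green bean and 183, 138 and 98 on corn, and in M1 it was 114, 128 and 153 on green bean and 116, 45 and 55 on corn. The ranges overlapped, and an exact two-sided permutation test within diets gave p = 0.255 (adjusted p = 0.335 over the 2 values tested, where 400 arrangements allow a smallest p of 0.005). The number of genes with at least 1 count was 80222 ± 25100 in M3 and 64913 ± 19900 in M1 (exact permutation test, p = 0.335, adjusted p = 0.335). Neither difference passed the test, which takes no account of the replicate numbers, although the corn libraries numbered 1 were the highest in genes detected in both sections.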

How the data were processed

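The deposited tables hold estimated counts per transcript, written as whole numbers by the authors; Trim Galore 0.4.4, Salmon 0.12 and DESeq2 1.20.0 are named in the submitters' processing notes with no role or order, and no annotation of the assembly was used. The midgut table (18 libraries) was used for the comparison, and the corn and gland tables only for levels in glands and as an alternative, since counts of the same library differ slightly between tables (185 and 188 for TRINITY_DN1491_c0_g1 in corn glands replicate 1).

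Isoform counts were summed to Trinity genes. In R 4.3.3 with edgeR 4.0.16, genes were kept by filterByExpr over the 4 groups, scaled by TMM and tested with glmQLFit (robust) and glmQLFTest, two-sided, with section and diet as terms. Diets were fitted alone on the same genes. A standard error is the log2 fold change divided by the square root of F. Levels are CPM with TMM factors over the 18 midgut libraries. Counting intervals of summed ratios are 95% exact binomial intervals, cover counting error only and not the spread between pools. An absent side was set to 3 counts. Within groups, pairs of libraries had a chi-square of 60.2 to 251 per degree of freedom over genes with at least 20 joint counts, so none was counted as a repeat. The fitting steps were tested on simulated data.

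A gene could be named with at least 10 CPM on the higher side, libraries that did not overlap between sections, a change of at least 1 in log2 and an adjusted p under 0.05. Over both diets the 2 largest gains and the 2 largest losses in mean CPM were taken, then on green bean alone and on corn alone the 2 largest fitted rises and the 2 largest falls not already named. None qualified for the interaction. Members, thresholds and rules were chosen with earlier results of these data known. The libraries left out as a group, the shares without the gene that led in M2 and the paired test of single values were chosen after seeing the data. Alternatives tried were DESeq2 1.42.0 and its size factors, no filter, all 18 midgut libraries in the fit, a replicate block, single libraries left out, transcripts as deposited and the corn table.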

Additional observations from a re-analysis of the deposited data

How the results depend on the processing

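Over both diets the count of 5356 called genes stayed within 1.5 times under every alternative run, from 4801 to 5380 with 1 library left out, 5356 with DESeq2's size factors, 6131 with DESeq2, 5618 with no filter on low counts, 5291 with all 18 midgut libraries, 6079 for transcripts, 5763 without the corn libraries numbered 1 and 5340 without those numbered 2 and 3. Of the 5618 calls with no filter, 3416 were among the 5356. The higher set's share of M3 counts, 21.74%, became 24.18% with a replicate block, 23.75% without the corn libraries numbered 1, 23.56% without those numbered 2 and 3, and 19.72% to 22.97% with 1 library left out. The lower set's share of M1 counts, 44.03%, became 49.01% with DESeq2, 36.33% with no filter, 46.2% with all 18 midgut libraries, 41.62% without the corn libraries numbered 2 and 3, and 37.88% to 46.59% with 1 library left out. On green bean alone 1 library left out gave 2618 to 3548 calls, and on corn alone 1331 to 2616. The interaction gave 104 calls with DESeq2 and 95 with no filter, against 0. The number of genes holding 50% of the counts differed by 15.97 to 37.57 and the number detected by 6821 to 21190 (M3 minus M1) with 1 library left out, in no case passing without pairing, and at a minimum of 10 counts the difference in genes detected was 2705. Except where the alternative's own construction tests other genes or fewer libraries, the cause of these shifts was not tested.

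Replicate numbers are shared between groups, but they were not taken to pair the samples, since the labels do not say that a number marks shared insects. For same-numbered M3 and M1 libraries, the correlation of deviations from the group means was 0.56, 0.07 and 0.47 on green bean and 0.61, 0.1 and 0.29 on corn. For differently numbered libraries it ran from -0.53 to 0.23 on green bean and from -0.59 to 0.44 on corn. Not every library correlated best with its own number. The second principal component held 18.8% of the variance. On it, green bean replicates 1, 2 and 3 lay at 119, 44.6 and 33.8 in M1 and at 61.8, 32 and 4.7 in M3. Corn replicates 1, 2 and 3 lay at 42.9, -137.3 and -72.6 in M1 and at 17.8, -59.4 and -87.2 in M3. Corn replicate 1 also detected the most genes in corn M2, 105966 against 38270 and 39170. Whether a number stands for a shared factor was not tested, and the main test takes no account of it. With a replicate block the calls were 6259 over both diets, 3948 on green bean alone, 3591 on corn alone and 0 for the interaction. With same-numbered libraries of a diet taken as pairs, an alternative chosen after seeing the data, M3 had more genes detected in 6 of 6 pairs, by 4955 to 28329 and by 15310 on average (exact permutation test, p = 0.0312, the smallest that 64 arrangements can give, adjusted p = 0.0625), and the number of genes holding 50% of the counts was higher in M3 in 4 of 6 pairs (p = 0.25, exact permutation test). Of 172 values of the 12 named genes under the alternatives, 167 kept direction and call, 5 lost the call (4 for TRINITY_DN5376_c0_g1 and 1 for TRINITY_DN2863_c1_g1) and 0 reversed.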

Other observations

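Salivary glands of corn-fed insects, whose libraries had no part in the comparison, showed genes lower in M3 less often than tested genes as a whole. For genes higher in M3, the share with at least 1 CPM in glands was near that of all tested genes. A mean of at least 1 CPM in glands was found for 1476 of 2824 genes higher in M3 (52.3%), 1134 of 2532 genes lower in M3 (44.8%) and 6955 of 12821 genes not called (54.2%), with 52.6% of all tested genes. No gland count at all was found for 329 of the genes higher in M3 (11.7%), 501 of those lower (19.8%) and 763 of those not called (5.95%). Over all tested genes this share was 8.76%. The median gland level was 1.32 CPM for the genes higher in M3, 0.499 CPM for those lower and 1.49 CPM for those not called. It was 1.3 CPM over all tested genes. Of the 54 genes near absence in M1, 49 were under 1 CPM in glands, and of the 145 near absence in M3, 121 were. Among all tested genes, 52.6% had at least 1 CPM there. These values come from the table of corn libraries and carry no test.

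Of the 8 genes named on green bean or corn alone, 3 had no count in any of the 6 gland libraries among the 4 higher in M3 (TRINITY_DN16710_c0_g1, TRINITY_DN1274_c0_g1 and TRINITY_DN20028_c0_g1), and 1 among the 4 lower in M3 (TRINITY_DN2863_c1_g1). TRINITY_DN9031_c0_g1, TRINITY_DN5974_c0_g2 and TRINITY_DN5376_c0_g1 had at most 4 counts in a gland library. TRINITY_DN4282_c0_g1 stood apart, with 487, 2 and 121 counts in green bean glands and 4, 16 and 60 in corn glands. Of the 4 genes named over both diets, TRINITY_DN256_c0_g1 had 343 to 736 gland counts, TRINITY_DN378_c0_g1 887 to 3227, TRINITY_DN1491_c0_g1 188 to 2496 and TRINITY_DN909_c0_g1 121 to 1531. These counts come from the table of gland libraries.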
